A study of Mus musculus with 16 samples.

Results

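The genes described here are those of antigen presentation by MHC class II: H2-Ab1, H2-Aa, H2-Eb1, Cd74, H2-DMa, H2-DMb1 and Ciita. They were taken by gene symbol in the array's platform annotation, with every probe set that carries the symbol and no other. This gave 14 of the 45037 probe sets on the array, for 6 of these 7 genes among 18193 genes with a probe set of their own. H2-DMb1 had no probe set of its own, and 2 further probe sets carried the symbols H2-DMb1 and H2-DMb2 together, so these 2 genes could not be told apart.

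RNA of the hippocampus was measured on 16 Affymetrix Mouse Genome 430 2.0 arrays in mice that express a constitutively active or a dominant negative form of the transcription factor CREB. VP16-CREB is CREB fused to the VP16 transactivation domain of a herpesvirus, which makes it active without a signal, and A-CREB is an inhibitor that dimerises with CREB and blocks its binding to DNA. Each array held RNA pooled from 3 to 4 mice, and a replicate below is such a pool. The transgenes of the labels stand under a tetO promoter, so they are switched by doxycycline (dox). In these lines the driver is known, as background, to be a transactivator under the CaMKII alpha promoter of forebrain neurons.

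The 3 week group held 3 pools of tetO-VP16-CREB mice of 6 weeks, raised with dox until it was removed 3 weeks before the experiment, and 3 pools of wild-type littermates on the same schedule. The 1 week group held 2 pools of tetO-VP16-CREB mice of 3 weeks, off dox for 1 week, and 2 pools of their wild-type littermates. The A-CREB group held 3 pools of TetO-A-CREB-95 mice of 6 weeks, raised without dox, and 3 pools of wild-type littermates. All are labelled with the C57BL/6J strain. Age and time off dox moved together between the VP16-CREB groups and cannot be told apart.

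A class II molecule is a pair of an alpha and a beta chain that shows peptides from endosomes to CD4+ T cells. H2-Aa and H2-Ab1 encode the chains of I-A, and H2-Eb1 encodes the beta chain of I-E, whose alpha chain gene H2-Ea is defective in C57BL/6 mice. Cd74 encodes the invariant chain, which fills the groove until H2-DM (H2-DMa with H2-DMb) helps exchange its remnant for peptide. Ciita encodes the transactivator that governs class II genes, acting on factors bound to the X and Y boxes of their promoters (RFX, CREB family factors and NF-Y). In the brain, class II is known mainly from microglia and border macrophages, and little of it is made at rest.

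The promoters are shown for the X and Y boxes named above, and whether CREB or VP16-CREB bound them was not tested. RefSeq promoters of build GRCm38.p6 were at hand for 4 of the 7 genes, and the 160 bases before the start are given on the gene's strand for the 3 whose window held an X motif. Capitals mark, where they read on the gene's strand, the X motif (CTNGNAACT), the Y motif (GATTGG) and, in H2-Aa, the full CRE (TGACGTCA), the palindrome that CREB binds. A further Y motif of H2-Eb1, on the opposite strand 35 bases before the start, is left in lower case.
H2-Aa, chr17:34287824-34287983, minus strand: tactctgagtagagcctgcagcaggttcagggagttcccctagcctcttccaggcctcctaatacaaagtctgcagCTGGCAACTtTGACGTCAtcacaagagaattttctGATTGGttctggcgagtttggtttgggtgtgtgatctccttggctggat
H2-Eb1, chr17:34305707-34305866, plus strand: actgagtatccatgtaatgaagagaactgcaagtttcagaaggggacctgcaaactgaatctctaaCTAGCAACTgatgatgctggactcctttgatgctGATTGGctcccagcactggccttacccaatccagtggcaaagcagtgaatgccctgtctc
H2-DMb1, chr17:34153031-34153190, plus strand: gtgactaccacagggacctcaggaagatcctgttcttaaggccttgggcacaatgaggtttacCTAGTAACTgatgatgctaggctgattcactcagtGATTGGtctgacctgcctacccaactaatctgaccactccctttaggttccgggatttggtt

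The X motif began 84 bases before the start in H2-Aa, 94 in H2-Eb1 and 97 in H2-DMb1. The Y motif followed at a distance of 35, 34 and 35 bases between the starts of the motifs in those 3 promoters. In H2-Aa the full CRE stood 1 base after the X motif. Both strands of every RefSeq promoter window were searched, 300 bases each (250 before the start and 50 after), and the motifs did not overlap each other. The X motif was in 4.1% of 32851 windows, the Y motif in 16.1% and the CRE in 1.79%. An X motif followed by a Y motif with starts 20 to 40 bases apart was in 5 windows (0.0152%), among them those of these 3 promoters. The letters of the X motif were set from these promoters, and the range of 20 to 40 spans their distances. Its presence in them and the share of windows with both motifs are therefore descriptions. Of the 2 windows of H2-DMa, 1 held a Y motif, 199 bases before the start, and neither held the X motif.

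All arrays had a mean intensity of 500 after leaving out 2% of values at each end. The 6 arrays of the 3 week cohort nevertheless stood apart from the others, with medians of 118.9 to 129.3 against 74.99 to 93.2. Log2 values of 2 arrays correlated across probe sets at 0.959 to 0.975 within groups and at 0.920 to 0.947 when only 1 of them was of the 3 week cohort, and every transgenic group was set against littermates of its own cohort. Of 5 probe sets of Creb1, the gene of which VP16-CREB holds a part, 2 were higher in VP16-CREB pools at 3 weeks (log2 differences of 4.26 and 2.27) and the same count was higher at 1 week (5.02 and 2.81), while none was called in A-CREB pools. In the A-CREB cohort, replicate 1 of both groups had low Xist (63.4 in A-CREB and 34.5 in controls, against 3611 to 4402 in the other pools of that cohort) and high Y-linked Eif2s3y (297.6 in A-CREB and 487.4 in controls). Replicate 2 of the A-CREB controls had Eif2s3y at 86.5 beside high Xist, although each pool is described as of 1 sex. All 7 markers of hippocampal neurons lay above the median of all values on every array. Camk2a, for example, was at 6264 ± 953 in 3 week VP16-CREB pools and 8587 ± 897 in their controls (SD, n = 3 each). The dimmest of them, Prox1, was at 162.0 ± 13.5 and 384.4 ± 25 in the same groups.

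At 3 weeks off dox, class II transcripts were higher in the VP16-CREB hippocampus along most of the pathway. Both I-A chains, the I-E beta chain, the invariant chain and both subunits of H2-DM rose, by 2.51-fold to 38.3-fold, and the probe sets of Ciita were dim in every group. Of the 14 probe sets of the genes, 9 were higher at an adjusted p under 0.05 in a fit of all 45037 probe sets without a filter on low values (limma with Benjamini-Hochberg adjustment), beside 1.54% of all probe sets that were called higher there. In 11 of the 14 every transgenic pool lay above every control pool, beside 11.4% of all probe sets. The test reported for single genes below kept probe sets with an intensity above 99.1, the median of all values, on at least 2 arrays. It held 9 of the 14, which were the called ones, beside 3.28% called higher among the 27044 probe sets kept. Of these 9, 4 passed that filter through VP16-CREB arrays alone, with no other array above 99.1, as did both shared probe sets, and the other 5 would have passed without those arrays. Because the tissue was measured in bulk, more cells that make class II and more class II RNA per cell cannot be told apart.

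**Figure D1:**
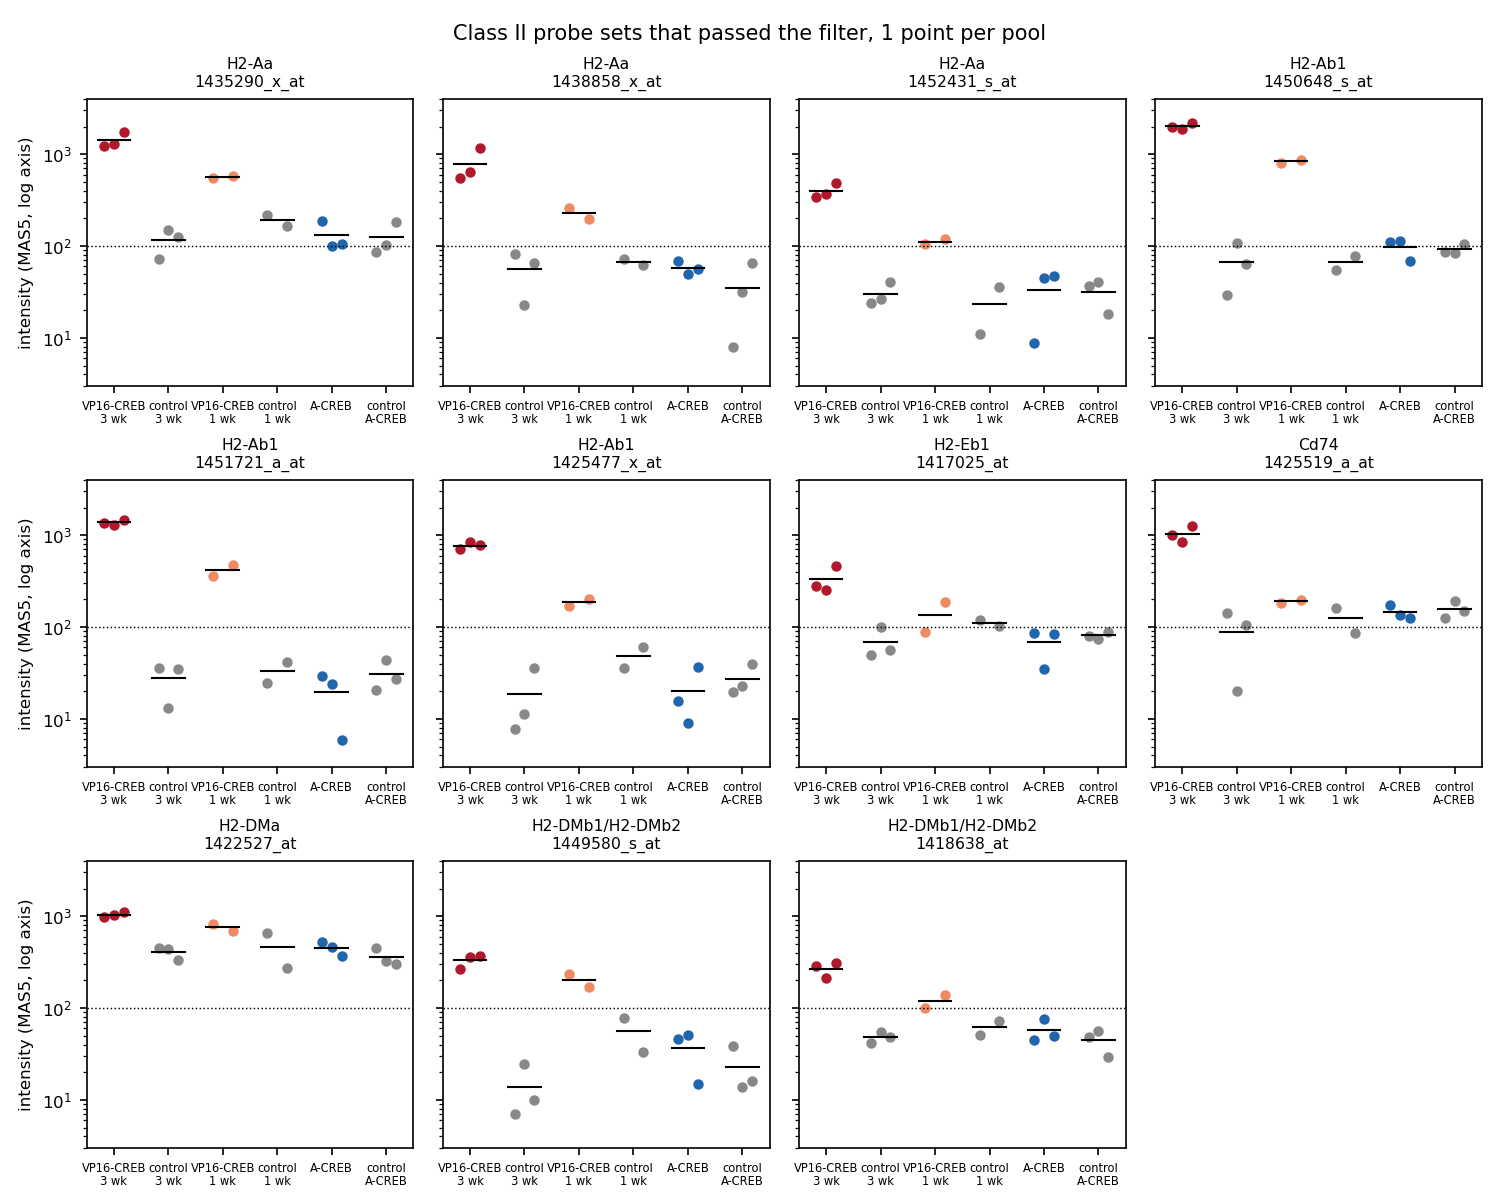
Intensity (log axis) of the 11 class II probe sets that passed the filter, 1 point per pool and a bar at the group mean, with each transgenic group left of its controls and a dotted line at 99.1, the median of all values. At 3 weeks every VP16-CREB pool lies above every control pool in all 11 panels, while A-CREB pools and their controls overlap in all of them.

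H2-Ab1 (chromosome 17, 34263227 to 34269418, GRCm38), the I-A beta chain, had the largest differences among the class II genes. Its probe set 1450648_s_at had intensities of 2001, 1894 and 2189 in VP16-CREB pools, against 29.1, 107.8 and 63.8 in controls. All control pools were near or below the median of all values, and every transgenic pool was far above all of them. The log2 difference was 4.87 ± 0.31 (SE), or 29.2-fold, with an adjusted p of 1.7e-06. Folds here and below are of the intensity plus 10, which understates the change of dim probe sets.

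Both other probe sets of H2-Ab1 were higher as well, with no overlap of the groups. Probe set 1451721_a_at had 1360, 1305 and 1481 in VP16-CREB pools, against 35.8, 13.2 and 35.0 in controls, a log2 difference of 5.26 ± 0.35 (adjusted p = 2.15e-06). Probe set 1425477_x_at had 700.3, 834.5 and 775.3 in VP16-CREB pools, against 7.81, 11.3 and 36.1 in controls, a log2 difference of 4.90 ± 0.37 (adjusted p = 4.03e-06). With no pseudocount the difference at 1425477_x_at was 5.70, and with a pseudocount of 25 it was 4.25. Suffixes such as _s_at and _x_at mark probes that can also read other transcripts. Whether those of other class II chains were read here was not tested.

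H2-Aa (chromosome 17, 34282744 to 34287823), the I-A alpha chain, rose at all 3 of its probe sets that passed the filter. The brightest, 1435290_x_at, had 1241, 1299.5 and 1765 in VP16-CREB pools, against 72.2, 150.9 and 126.3 in controls. Its log2 difference was 3.55 ± 0.31 (11.7-fold, adjusted p = 1.39e-05), and the lowest transgenic pool was far above the highest control pool. Probe set 1438858_x_at averaged 790.9 ± 341 in VP16-CREB pools and 56.2 ± 30.4 in controls (SD, n = 3 each), with a log2 difference of 3.64 ± 0.47 (adjusted p = 0.000357). Its spread came mainly from replicate 3 of the VP16-CREB pools, at 1182 against 553.8 and 637.2 in the other 2. Probe set 1452431_s_at averaged 401.7 ± 75.4 in VP16-CREB pools and 30.4 ± 9.13 in controls, with a log2 difference of 3.36 ± 0.40 (adjusted p = 0.000192). The remaining probe set, 1443783_x_at, stayed below the median of all values on every array, with 44.3 to 57.8 in VP16-CREB pools and 2.40 to 33.9 in controls. It differed by 1.13 log2 in the fit without a filter (adjusted p = 0.294).

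H2-Eb1 (chromosome 17, 34305867 to 34316674), the I-E beta chain, rose 4.37-fold. Its probe set 1417025_at had 280.2, 255.8 and 467.0 in VP16-CREB pools, against 49.8, 100.5 and 56.7 in controls. The groups did not overlap, and the log2 difference was 2.13 ± 0.35 (adjusted p = 0.00242). The partner chain gene H2-Ea, named for its role after its values were seen, averaged 48.7 ± 25.7 in VP16-CREB pools and 52.1 ± 7.02 in controls and did not pass the filter.

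Cd74 (chromosome 18, 60803849 to 60812652), the invariant chain, had 1 probe set, 1425519_a_at. Its intensities were 997.4, 848.0 and 1249 in VP16-CREB pools, against 141.9, 20.2 and 104.8 in controls. All transgenic pools were high, and the controls were near the median of the array apart from the low replicate 2. The log2 difference was 3.67 ± 0.45 (12.7-fold, adjusted p = 0.000244). Without replicate 2 of the controls it was 2.96 (adjusted p = 5.97e-05).

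H2-DMa (chromosome 17, 34119693 to 34139101), the alpha subunit of the peptide exchange factor, lay above the median of all values in every control pool. Its probe set 1422527_at had 972.0, 1028 and 1111 in VP16-CREB pools, against 452.8, 439.5 and 335.5 in controls. The groups did not overlap, and the log2 difference was 1.33 ± 0.27 (2.51-fold, adjusted p = 0.011), the smallest among the called class II probe sets. The call was lost without replicate 3 of the VP16-CREB pools (1.28, adjusted p = 0.0584) or without replicate 3 of the controls (1.20, adjusted p = 0.0592). A further probe set, 1459872_x_at, did not pass the filter, with 4.18 to 26.9 in VP16-CREB pools and 2.28 to 3.12 in controls.

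The beta subunit was read by the 2 probe sets shared by H2-DMb1 (chromosome 17, 34153191 to 34160229) and H2-DMb2. Probe set 1449580_s_at had 266.2, 361.5 and 369.8 in VP16-CREB pools, against 7.10, 24.3 and 9.996 in controls, a log2 difference of 3.90 ± 0.40 (adjusted p = 4.81e-05). Without a pseudocount this difference was 4.78, and with a pseudocount of 25 it was 3.22. Probe set 1418638_at had 284.3, 212.7 and 307.5 in VP16-CREB pools, against 41.3, 55.3 and 48.0 in controls, a log2 difference of 2.25 ± 0.24 (adjusted p = 6.95e-05). Both probe sets separated the groups, and they differed from each other in the size of the difference. A probe set that carries H2-DMb2 alone averaged 91.0 ± 35.1 in VP16-CREB pools and 61.4 ± 12.5 in controls and did not pass the filter.

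Ciita (chromosome 16, 10480014 to 10531064), the transactivator, had 3 probe sets, and all were below the median of all values on all 16 arrays. Probe set 1421210_at had 34.6, 33.1 and 48.7 in 3 week VP16-CREB pools, against 23.2, 38.6 and 29.4 in controls. Probe set 1421211_a_at had 52.7, 10.4 and 6.05 in VP16-CREB pools, against 2.59, 31.1 and 14.3 in controls. The pools of both groups overlapped at these probe sets, with log2 differences of 0.28 (95% interval -0.37 to 0.92, adjusted p = 0.878) and 0.24 (-0.99 to 1.47, adjusted p = 0.963) in the fit without a filter. Without replicate 1 of the VP16-CREB pools, the 1 bright pool of 1421211_a_at, the direction of that probe set turned, to -0.36.

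Probe set 1447075_at of Ciita ran the other way. It had 5.23, 4.91 and 8.56 in VP16-CREB pools, against 13.3, 46.0 and 13.9 in controls, so every transgenic pool was below every control pool. Its log2 difference was -0.96 (95% interval -1.91 to -0.02, adjusted p = 0.472), and 9.77% of all probe sets had all transgenic pools below all controls. At 1 week it had 3.70 and 3.23 in VP16-CREB pools, against 6.92 and 25.3 in controls, also without overlap, as had 13.1% of all probe sets. At such intensities these probe sets do not show whether Ciita RNA differed.

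**Figure D2:**
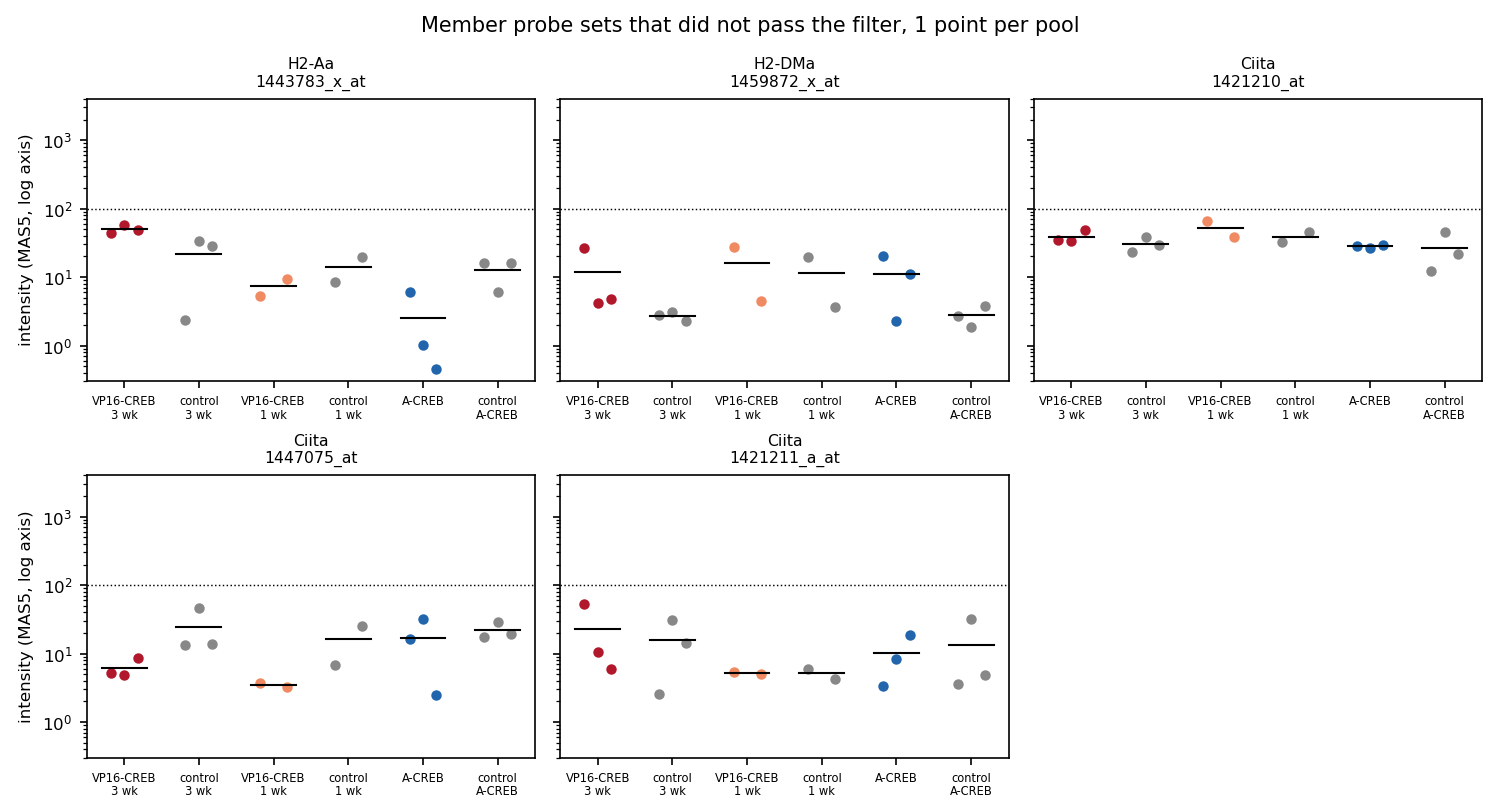
Intensity (log axis) of the 5 probe sets of the class II genes that did not pass the filter, 1 point per pool and a bar at the group mean, with the dotted line at 99.1, the median of all values. All 3 Ciita probe sets lie below the line on all 16 arrays, and the VP16-CREB pools lie below their controls at 1447075_at.

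At 1 week off dox, in mice of 3 weeks, H2-Ab1 was the only class II gene called. Of the 14 probe sets, 2 were higher at an adjusted p under 0.05 in the fit without a filter, beside 0.06% of all probe sets, and the same count was higher with the filter, beside 0.218%. Probe set 1450648_s_at had 804.5 and 861.1 in VP16-CREB pools, against 54.3 and 78.5 in controls (log2 difference of 3.48 ± 0.38, 11.2-fold, adjusted p = 0.00143). Probe set 1451721_a_at had 359.0 and 474.9 in VP16-CREB pools, against 24.6 and 42.0 in controls (log2 difference of 3.32 ± 0.43, adjusted p = 0.00504). Both groups were well apart at these probe sets. With only the arrays of the 1 week cohort in the fit, both calls were lost (adjusted p of 0.0716 and 0.146), as were all others on the array.

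The third H2-Ab1 probe set and the 3 H2-Aa probe sets that passed the filter lay above their controls without being called. Probe set 1425477_x_at of H2-Ab1 had 168.7 and 202.4 in VP16-CREB pools, against 35.8 and 60.1 in controls (adjusted p = 0.199). Probe set 1435290_x_at of H2-Aa had 546.2 and 576.6 in VP16-CREB pools, against 216.1 and 164.7 in controls (1.52 ± 0.38 log2, adjusted p = 0.197). The other 2 H2-Aa probe sets that passed the filter differed by 1.63 and 1.98 log2 (adjusted p of 0.617 and 0.193). The dim 1443783_x_at of H2-Aa had 5.28 and 9.54 in VP16-CREB pools, against 8.57 and 19.9 in controls, which overlap (-0.45 log2 in the fit without a filter). The shared H2-DMb1 and H2-DMb2 probe sets differed by 1.75 and 0.83 log2 (adjusted p of 0.303 and 0.624), and H2-DMa by 0.82 (adjusted p = 0.774). In 8 of the 14 probe sets both VP16-CREB pools lay above both controls, beside 17.5% of all probe sets.

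Cd74 and H2-Eb1 were not called at 1 week, with intervals that include 0. Cd74 had 181.9 and 197.7 in VP16-CREB pools, against 161.9 and 85.9 in controls (0.64 log2, 95% interval -0.55 to 1.83). H2-Eb1 had 87.7 and 185.4 in VP16-CREB pools, against 118.5 and 101.7 in controls, which overlap (0.21 log2, 95% interval -0.71 to 1.12). Without replicate 2 of the VP16-CREB pools the difference of H2-Eb1 was -0.29.

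Whether the class II difference was larger at 3 weeks than at 1 week was tested as a contrast of both differences. All 9 tested probe sets had the larger difference at 3 weeks, by 0.51 to 3.12 log2, as had 48.6% of all probe sets tested. Of the 9, 8 passed an unadjusted p of 0.05, beside 3.08% of all probe sets with a contrast in that direction. None passed after adjustment in limma, where no probe set of the array was called higher (0%). Of the 9, 4 had passed the filter through VP16-CREB arrays alone, so the filter had a part in the count of 9. In the fit without a filter 12 of the 14 had the larger difference at 3 weeks (-0.10 to 3.12 log2). There 8 of the 14 passed an unadjusted p of 0.05 and none was called higher, beside 0% of all probe sets. The largest contrasts were those of H2-Ab1 at 1425477_x_at (3.12 ± 0.58, adjusted p = 0.187) and of Cd74 (3.03 ± 0.71, adjusted p = 0.287). Part of both contrasts lay in the controls, which averaged lower in the 3 week group than in the 1 week group. They averaged 18.4 and 48.0 at 1425477_x_at, and 89.0 and 123.9 for Cd74, differences that were not called. The contrast of H2-DMa, the smallest at 0.51, was -0.10 without replicate 1 of the 1 week controls.

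**Figure D3:**
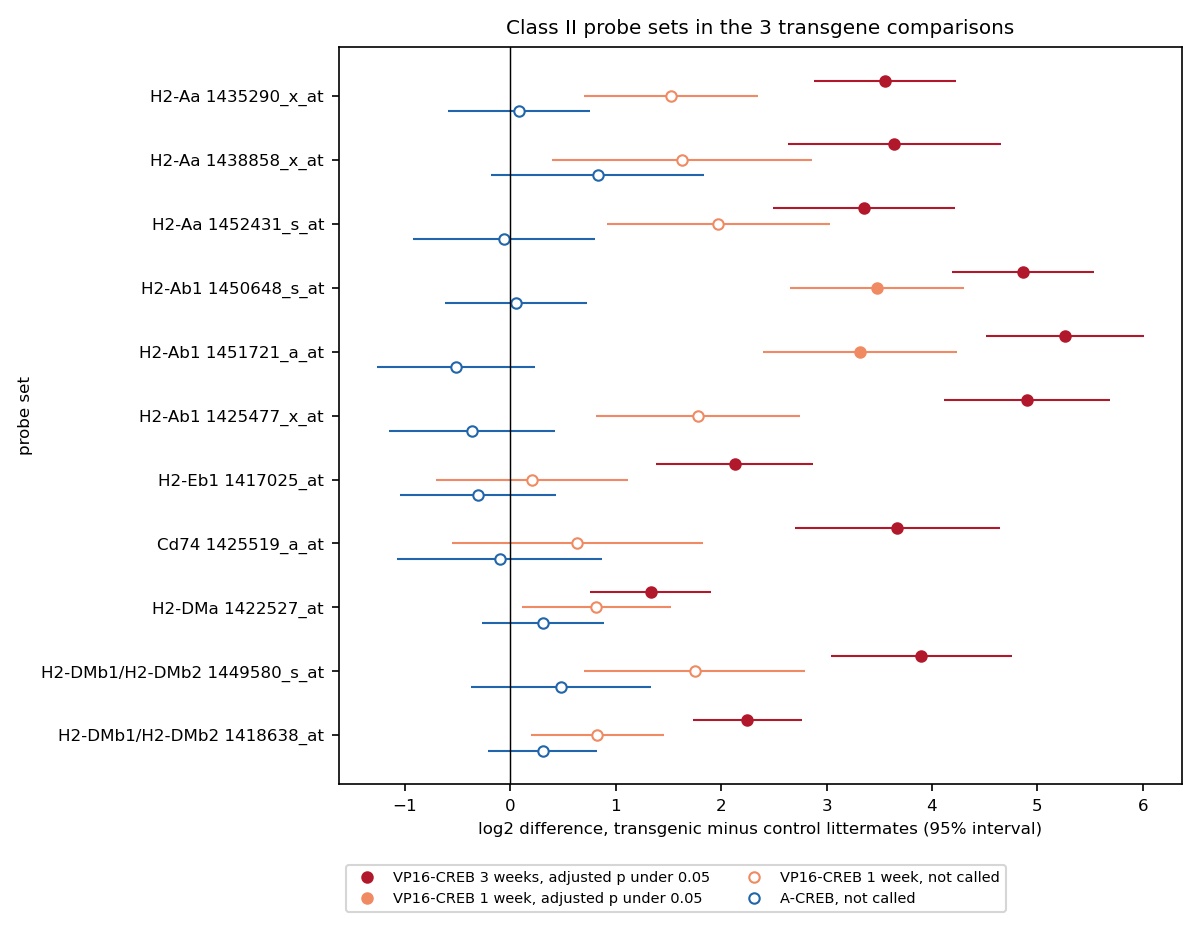
Log2 difference between transgenic pools and control littermates with its 95% interval, for the 11 class II probe sets that passed the filter, in the 3 transgene comparisons; filled points passed an adjusted p of 0.05. The 3 week differences run from 1.33 to 5.26, the filled 1 week points are the 2 H2-Ab1 probe sets at 3.48 and 3.32, and the A-CREB intervals all include 0.

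In A-CREB pools no class II probe set was called, and none of the 9 tested passed an unadjusted p of 0.05 in limma. No probe set of the whole array was called in this comparison (0%). The log2 differences ran from -0.52 to 0.83 over the 9 and from -0.86 (1443783_x_at of H2-Aa) to 0.83 over all 14 in the fit without a filter, and the pools of both groups overlapped at all 14 probe sets. Of all probe sets, 4.06% had every A-CREB pool above and 3.73% had every A-CREB pool below all controls. H2-Ab1 (1450648_s_at) had 111.3, 114.6 and 68.0 in A-CREB pools, against 86.4, 83.3 and 106.4 in controls, with a 95% interval of the log2 difference of -0.62 to 0.73. H2-Aa (1435290_x_at) had 187.7, 99.3 and 106.0 in A-CREB pools, against 85.6, 102.9 and 184.4 in controls (-0.59 to 0.76). Cd74 had 172.8, 135.8 and 124.8 in A-CREB pools, against 125.6, 193.0 and 151.2 in controls (-1.07 to 0.87). Neither group was the higher one in every pool at these 3 probe sets. Leaving out replicate 2 of the controls, the pool with the mixed sex signal, or either replicate 1 gave no call among the 9.

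The 3 week VP16-CREB difference exceeded the A-CREB difference, as a contrast of both, at 7 of the 9 tested probe sets and at both shared ones, beside 0.828% of all probe sets tested. Line, dox schedule and cohort also differed between these groups, so the transgene cannot be told apart from them in this contrast. Without the filter 6 of the 14 were called, beside 0.289% of all. The contrast was 4.81 log2 at 1450648_s_at of H2-Ab1 (adjusted p = 0.00027), 3.47 at 1435290_x_at of H2-Aa (adjusted p = 0.0021) and 3.77 for Cd74 (adjusted p = 0.0121). Without replicate 2 of the 3 week controls that of Cd74 was 3.06. H2-Aa at 1438858_x_at (2.81, adjusted p = 0.0799) and H2-DMa (1.02, adjusted p = 0.381) were not called. The call of H2-Eb1 (2.43, adjusted p = 0.0338) was lost in 12 of 23 alternative settings, 9 of which left out 1 pool, with adjusted p of up to 0.107. That of the shared probe set 1418638_at (1.94, adjusted p = 0.0143) was lost without VP16-CREB replicate 3 (1.84, adjusted p = 0.0575).

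Between the control littermates of 6 weeks and of 3 weeks no tested class II probe set with 1 symbol was called, and 1 passed an unadjusted p of 0.05 in limma. It was 1425477_x_at of H2-Ab1, lower in the controls of 6 weeks (-1.13 ± 0.41 log2, adjusted p = 0.0762). The controls of 6 weeks here are those of the 3 week VP16-CREB group, and the A-CREB controls, of the same age but another line, did not enter. On the whole array, 4.25% of probe sets were lower and 13.7% higher in the controls of 6 weeks. That balance turned with arrays centred on the median (38.1% lower and 8.9% higher), where the median difference of all probe sets was -0.48 log2 against 0.07 before, and it was 7.82% lower and 9.55% higher after quantile normalization. The shared probe set 1449580_s_at of H2-DMb1 and H2-DMb2 was lower, at 7.10, 24.3 and 9.996 in controls of 6 weeks, against 78.9 and 33.3 in controls of 3 weeks (-1.45 ± 0.45 log2, adjusted p = 0.0375). The groups did not overlap, but no control array was above 99.1 at this probe set, which passed the filter through VP16-CREB arrays alone. The call was lost in the fit without a filter (adjusted p = 0.0671), with only the arrays compared (0.0603) and without replicate 1 of the 3 week old controls (-0.93, adjusted p = 0.353). It was also lost without replicate 1 (-1.24, adjusted p = 0.12) or replicate 3 (-1.36, adjusted p = 0.0954) of the controls of 6 weeks. The A-CREB controls had 38.8, 13.7 and 16.2, of which the highest lies above the lower control of 3 weeks. The summed intensity of the 7 choroid plexus markers was 15400 to 37610 in controls of 6 weeks and 35450 to 43780 in controls of 3 weeks. Among them Clic6 averaged 257.5 ± 170 in controls of 6 weeks and 2952 ± 492 in controls of 3 weeks (SD, n = 3 and 2), and the part of these markers in the result was not tested. Age and cohort cannot be told apart here.

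Other genes of the pathway were read on the brightest probe set of each gene. The median log2 difference of all probe sets at 3 weeks was -0.01, against which the list medians below can be set. Likewise, the counts of called genes can be set against 3.28% of all probe sets tested called higher at 3 weeks and 0.218% at 1 week. Of the other class II chains (H2-Oa, H2-Ob, H2-Ea, H2-Eb2 and H2-DMb2, median 0.44) none was called, and 1 of the 5 passed the filter. That was H2-Oa, a subunit of the H2-DM inhibitor H2-O, at 200.6 ± 35.6 in VP16-CREB pools and 51.0 ± 22.6 in controls (1.85 log2, adjusted p = 0.0674).

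Genes that act upstream of class II transcription were not called at their brightest probe sets. All 7 measured factors of the class II promoter had passed the filter, and none was called (median -0.10). The NF-Y subunit gene Nfyc averaged 1172 ± 63.4 in VP16-CREB pools and 1254 ± 25.4 in controls, and Creb1 averaged 1471 ± 241 in VP16-CREB pools and 1611 ± 339 in controls at its brightest probe set, which is not among the 2 that were higher. Of the route by which interferon gamma induces Ciita, 5 of 6 measured genes passed the filter and none was called (median 0.34). The kinase genes Jak1 (0.06 log2) and Jak2 (-0.08) were the brightest. Ifng itself, named after its values were seen, averaged 25.6 ± 19.3 in VP16-CREB pools and 11.3 ± 6.11 in controls, below the filter.

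Enzymes that prepare antigen and degrade the invariant chain rose together with the class II genes. Of 8 measured, 6 were higher at 3 weeks (median 1.11), beside 3.28% of all probe sets tested. Ifi30, a thiol reductase of the endosome, averaged 592.1 ± 28.1 in VP16-CREB pools and 112.4 ± 4.88 in controls (2.30 ± 0.20 log2, adjusted p = 1.39e-05). Ctss, the cathepsin that cleaves the invariant chain, averaged 12030 ± 899 in VP16-CREB pools and 2885 ± 35.8 in controls (2.05 ± 0.18 log2, adjusted p = 1.39e-05). Ctsd, an endosomal protease, averaged 9243 ± 995 in VP16-CREB pools and 2610 ± 13.7 in controls (1.82 ± 0.16 log2, adjusted p = 1.27e-05). Lgmn, the smallest but 1 of the 6 at 1.09 log2, lost its call without control replicate 1 (adjusted p = 0.0577) or 2 (0.0532) or without VP16-CREB replicate 2 (0.0657) or 3 (0.0775). At 1 week none of the 8 was called, with Ifi30 at 1.28 log2 (adjusted p = 0.0586).

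Of 8 genes that costimulate or restrain T cells, 5 passed the filter and 3 rose at 3 weeks (median of the 8 was 0.64). Cd86, the costimulatory ligand of CD28, averaged 317.9 ± 78.3 in VP16-CREB pools and 66.6 ± 2.25 in controls (2.07 ± 0.26 log2, adjusted p = 0.000276). The adhesion molecule gene Icam1 rose by 1.90 log2 (adjusted p = 0.00036) and the galectin gene Lgals9 by 1.76 (adjusted p = 0.00441), while Cd80 and Cd40 did not pass the filter. At 1 week Icam1 was called (165.4 ± 6.01 in VP16-CREB pools and 51.8 ± 31.7 in controls, SD, n = 2 each, adjusted p = 0.0499). It lost that call in 11 of 15 alternative settings, among them the omission of either VP16-CREB pool (adjusted p of 0.289 and 0.167) or of control replicate 2 (0.228). Of 5 turnover genes 1 rose at 3 weeks (median -0.09), Cd83, which stabilises surface class II, by 0.76 log2 (adjusted p = 0.0298). Its call was lost without any of the 3 control pools (adjusted p of 0.0872, 0.135 and 0.0564) and without VP16-CREB replicate 2 (0.104) or 3 (0.14), and in the fit without a filter (0.0788).

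**Figure D4:**
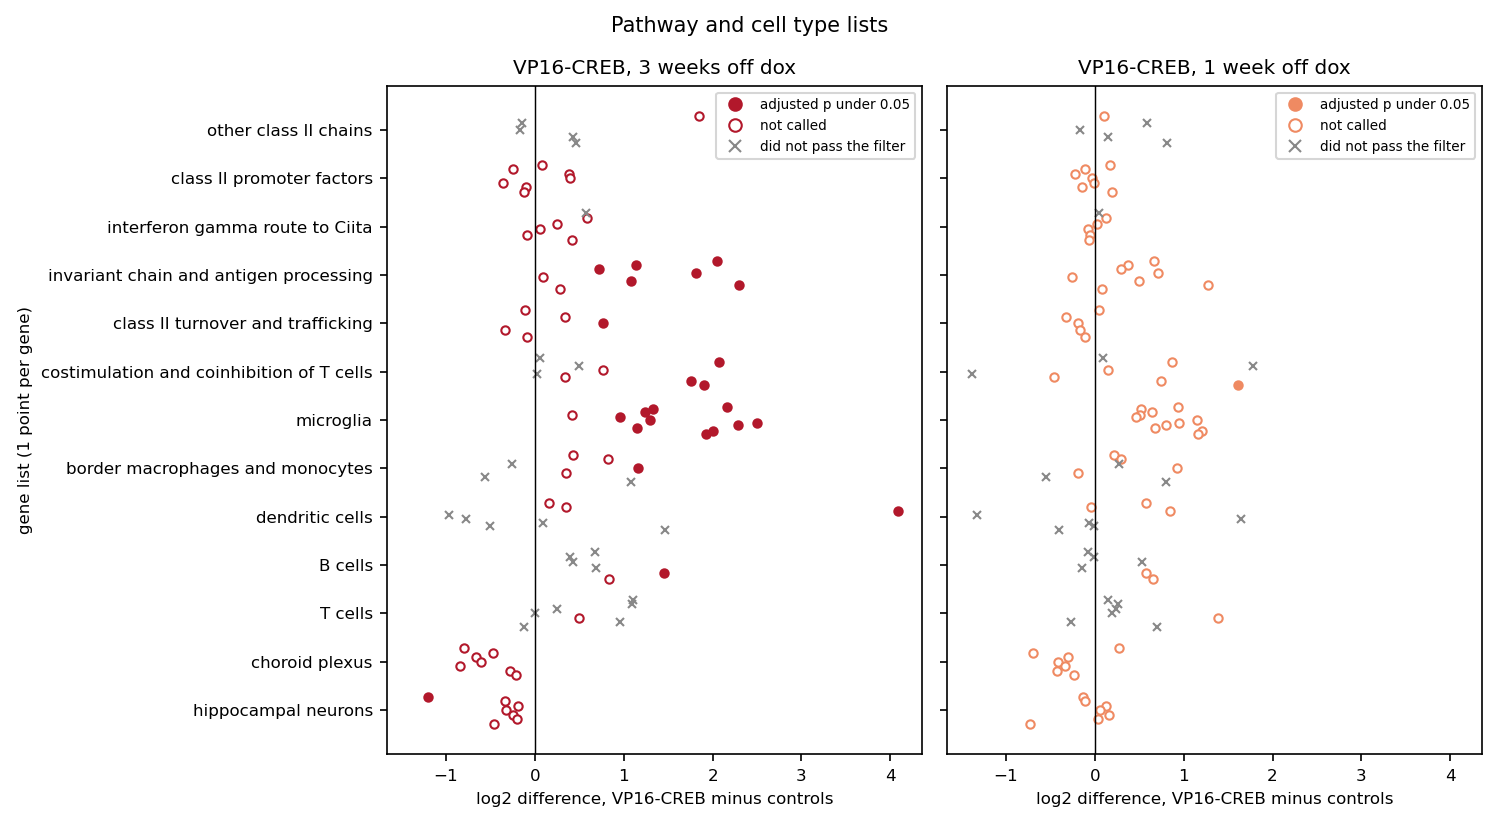
Log2 difference between VP16-CREB pools and control littermates for the genes of each pathway and cell type list, 1 point per gene on its brightest probe set, at 3 weeks (left) and 1 week (right); filled points passed an adjusted p of 0.05 and crosses did not pass the filter. At 3 weeks 10 of 11 microglia genes and 6 of 8 antigen processing genes are filled, beside 3.28% of all probe sets tested that were called higher. At 1 week the 1 filled point is Icam1, beside 0.218% of all.

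Microglia markers rose with these genes at 3 weeks, and their part in the result was not tested. Of 11 measured microglia markers, 10 rose at 3 weeks (median 1.33), beside 3.28% of all probe sets tested. The marker not called was P2ry12, at 1393 ± 389 in VP16-CREB pools and 1015 ± 107 in controls (0.42 log2, adjusted p = 0.801). The summed intensity of the 11 was 36990 to 44470 in VP16-CREB pools and 11480 to 11820 in controls. The complement genes C1qa and C1qb rose by 2.50 and 2.28 log2 (adjusted p of 7.92e-06 and 2.16e-05). In the fit without a filter 9 of the 11 were called, beside 1.54% of all probe sets called higher there. Tmem119 lost its call without any 1 of the 6 pools of the cohort (adjusted p of 0.0768 to 0.17). Without VP16-CREB replicate 3, Cx3cr1 (0.0571) and Itgam (0.0608) were not called either. At 1 week no marker was called, with sums of 20790 to 24760 in VP16-CREB pools and 11320 to 17000 in controls. The sums were 12960 to 18170 in A-CREB pools and 11910 to 14570 in their controls.

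Other cell types that carry class II had fewer markers above the filter. Their counts also stand beside 3.28% of all probe sets tested that were called higher at 3 weeks. Of 7 measured markers of border macrophages and monocytes, 4 passed and 1 rose at 3 weeks (median 0.43), Ms4a7 by 1.16 log2 (adjusted p = 0.0372). That call was lost in 10 of 16 alternative settings, 5 of which left out 1 pool: control replicate 1 (0.0833), 2 (0.167) or 3 (0.0712), or VP16-CREB replicate 2 (0.104) or 3 (0.186). It was not called in the fit without a filter (0.0841). Their sum was 669.3 to 823.7 in VP16-CREB pools and 478.2 to 565.9 in controls. Of 8 dendritic cell markers 3 passed and 1 rose (median 0.13), Itgax, the integrin CD11c, by 4.08 ± 0.55 log2 (746.3 ± 261 in VP16-CREB pools and 39.7 ± 30.6 in controls, adjusted p = 0.000568). The sums were 867.3 to 1399 in VP16-CREB pools and 391.2 to 447.4 in controls, and most of that rise was Itgax alone. Of the others, Xcr1, Cd209a and Itgae averaged lower in VP16-CREB pools than in controls, and Flt3, Zbtb46, Ccr7 and Clec10a higher. In the fit without a filter Clec10a was called as well (37.7 ± 21.4 in VP16-CREB pools and 6.29 ± 2.02 in controls, adjusted p = 0.0418). Ccr7 averaged 2.58 in VP16-CREB pools and 1.76 in controls, and Xcr1 averaged 18.4 in VP16-CREB pools and 44.2 in controls, both below the filter. Of 6 B cell markers 2 passed and 1 rose (median 0.69), Cd22 by 1.45 log2 (adjusted p = 0.00185), with sums of 820.8 to 907.0 in VP16-CREB pools and 383.1 to 529.3 in controls. The defining B cell genes Ms4a1, Cd79a, Cd79b and Pax5 did not pass the filter.

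Of 7 T cell markers 1 passed and none was called (median 0.49), with sums of 300 to 346.2 in VP16-CREB pools and 158.5 to 226.1 in controls. Cd8a averaged 159.0 ± 37.9 in VP16-CREB pools and 109.4 ± 20.7 in controls (adjusted p = 0.857), and Cd3e, below the filter, averaged 66.1 ± 10.9 in VP16-CREB pools and 28.7 ± 20.3 in controls. None of 7 choroid plexus markers was called (median -0.60), with sums of 7197 to 27080 in VP16-CREB pools and 15400 to 37610 in controls, such as Ttr at -0.80 and Clic6 at -0.84 log2. Of 7 markers of hippocampal neurons 1 fell (median -0.32), beside 0.651% of all probe sets tested, with sums of 49790 to 71160 in VP16-CREB pools and 61300 to 82760 in controls. It was Prox1, a gene of dentate granule neurons, at 162.0 ± 13.5 in VP16-CREB pools and 384.4 ± 25 in controls (-1.20 ± 0.15 log2, adjusted p = 0.000268).

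Among the VP16-CREB pools of 3 weeks, replicate 3 had the highest intensity at 10 of the 11 class II probe sets that passed the filter. The mean profile of H2-Aa, H2-Ab1 and H2-Eb1, as log2 values relative to the control mean of the cohort, was 3.38, 3.33 and 3.83 in these pools, against -0.58, 0.57 and 0.02 in their controls. It was 1.54 and 1.93 in 1 week VP16-CREB pools, against 0.02 and -0.02 in controls, and 0.32, -0.32 and -0.17 in A-CREB pools, against -0.17, -0.14 and 0.31 in controls. The 1 week VP16-CREB pools lay between the 3 week pools and all controls. Over the 16 arrays, Pearson's r with that profile was 0.953 at 1451721_a_at and 0.964 at 1425477_x_at of H2-Ab1. It was 0.864 for Cd74, 0.835 for H2-DMa at 1422527_at, and 0.351, 0.17 and -0.529 for the Ciita probe sets. Probe set 1450648_s_at of H2-Ab1 is itself part of the profile, so its r of 0.978 is partly fixed by that.

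The 5 genes outside the class II set with the profile most like it over the 16 arrays were Msn (r = 0.977), Grn (0.976), Laptm5 (0.976), Lcp1 (0.974) and Slc32a1 (0.971). These correlations are descriptions, since the arrays share groups and most of the variation lies between the 3 week VP16-CREB pools and the rest. Grn, which encodes progranulin, averaged 3209 ± 52.4 in 3 week VP16-CREB pools and 718.8 ± 49.5 in controls. Laptm5, a lysosomal membrane gene of blood and immune cells, averaged 1152 ± 199 in VP16-CREB pools and 290.7 ± 17.6 in controls. Slc32a1, the vesicular transporter of inhibitory neurons, averaged 2465 ± 140 in VP16-CREB pools and 1043 ± 56.2 in controls.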

How the data were processed

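The deposited values are intensities on a linear scale, 1 per probe set and array, which the authors made with MAS5 (version not given in the sources used here), per the submitters' processing notes. MAS5 subtracts a mismatch signal, so low intensities are noisy, and for arrays their number limits the precision. Early A-CREB arrays named in the design text were not analysed here.

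The 64 control probe sets were left out, and 10 was added to the intensities of the others before log2. Probe sets above 99.1, the median of all values, on at least 2 arrays were tested, 27044 in all (60.0%). Symbols came from the platform annotation, updated by Entrez ID (34945 probe sets with 1 symbol, 932 with several, 9160 with none). All 16 arrays entered 1 model with a coefficient per group in limma 3.58.1 (R 4.3.3, two-sided moderated test, 10 residual and 3.44 prior degrees of freedom), with Benjamini-Hochberg adjustment over all probe sets tested and a threshold of 0.05. Figures were drawn with matplotlib 3.10.9. The p-values measure the spread between pools.

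All probe sets of the class II genes are described. From each pathway list up to 3 called genes by size at 3 weeks are named, from each marker list up to 2 (the 2 brightest where none was called), and the 5 genes most like the class II profile. The genes, lists and tests were chosen with earlier results of these data known. Alternatives were other pseudocounts, filters, scalings and variance settings, only the arrays compared, weights for arrays, each gene on its brightest probe set, the replicate number as a block, and the omission of each pool.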

Additional observations from a re-analysis of the deposited data

Results flagged for a closer look

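These class II probe sets differed between the VP16-CREB line at 3 weeks and the A-CREB line in their difference from control littermates, by a test of the contrast of both differences (limma, adjusted p under 0.05). The contrast, in log2 and as VP16-CREB minus A-CREB, was 5.78 at 1451721_a_at, 5.27 at 1425477_x_at and 4.81 at 1450648_s_at of H2-Ab1. It was 3.47 at 1435290_x_at and 3.42 at 1452431_s_at of H2-Aa, 3.77 for Cd74 and 2.43 for H2-Eb1. At the probe sets shared by H2-DMb1 and H2-DMb2 it was 3.42 (1449580_s_at) and 1.94 (1418638_at). On the whole array 0.828% of the probe sets tested were called higher in this contrast. H2-Eb1 was not called in the fit without a filter (adjusted p = 0.0811). Probe sets 1451721_a_at, 1425477_x_at, 1452431_s_at and both shared ones had passed the filter through VP16-CREB arrays alone. Line, dox schedule and cohort differed as well, and the transgene cannot be told apart from them. The groups of 2 or 3 pools were too small to look for single pools that stand apart.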

How the results depend on the processing

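Counts here are of class II probe sets that passed the filter, so Ciita is not among them. With 1 probe set per gene, 5 of 5 were called at 3 weeks (9 of 9 with all probe sets). On the array, 758 probe sets were called higher then (886 with all). At 1 week 1 was called (2 with all), beside 62 called higher on the array (59 with all). In the contrast of VP16-CREB at 3 weeks with A-CREB 4 were called (7 with all), beside 211 called higher on the array (224 with all). Fewer class II probe sets were counted with 1 per gene. With only the arrays compared, the count at 1 week was 0, on fewer samples. Between control ages, where none was called, 2 were called lower after quantile normalization (7.82% of all probe sets) and 3 with arrays centred on the median (38.1% of all), and 0 to 1 with 1 pool left out. The shared 1418638_at was called lower under both (adjusted p of 0.0306 and 0.0144). The cause was not tested. With a pool left out, 8 to 9 were called at 3 weeks, 2 at 1 week and 6 to 7 in the contrast with A-CREB.

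The replicate numbers were not taken as pairs, since not every correlation of the deviations of same-numbered pools was over 0.1. They were -0.23 to 0.22 at 3 weeks, 0.15 at 1 week and -0.05, 0.41 and 0.27 in the A-CREB cohort, where both pools numbered 1 had low Xist. With the replicate block the counts were 9 at 3 weeks, 2 at 1 week, 0 in A-CREB, 6 in the contrast with A-CREB, where H2-Eb1 was lost, and 1 between control ages.

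Directions that turned with a pool left out were all of values that were not called. The log2 differences then ran from -0.29 to 0.71 for H2-Eb1 at 1 week and from -0.36 to 0.65 for Ciita (1421211_a_at) at 3 weeks. The contrast of 3 weeks with 1 week of H2-DMa ran from -0.10 to 1.13. In A-CREB they ran from -0.50 to 0.053 for H2-Eb1, from -0.24 to 0.05 for Cd74, from -0.19 to 0.39 for H2-Aa at 1435290_x_at, from -0.34 to 0.46 at 1452431_s_at, and from -0.063 to 0.28 for H2-Ab1 at 1450648_s_at. At 3 weeks, 250 of 254 alternative values of the class II probe sets kept direction and call. The limits are signals near background (Ciita above all), 2 pools a group at 1 week, and probe sets that can read other transcripts.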
